A study of Mus musculus with 19 samples.

Results

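Within each of 2 groups of mouse livers, a minority of the libraries carried a profile of circadian clock genes unlike that of the rest of their group. The libraries were chosen by their level of Arntl, which encodes BMAL1, the partner that every CLOCK- or NPAS2-containing activator of the clock needs. In fasted PLIN5 ASO and in re-fed control ASO, a library with at least 10 CPM of Arntl (counts in each 1e6 counts of the library) was called shifted. Of the 10 libraries of these groups 4 were shifted, numbers 3 and 5 of each group, and 6 were not (numbers 1, 2 and 4, called the others here); the whole series holds 19. Arntl stood at 14.6 and 14.7 CPM in the shifted libraries of fasted PLIN5 ASO and at 24.0 and 46.8 CPM in those of re-fed control ASO. The others held 0.542, 1.60 and 1.60 CPM in fasted PLIN5 ASO and 1.32, 3.65 and 0.649 CPM in re-fed control ASO, so that 14.6 CPM was the nearest value inside the threshold and 3.65 CPM the nearest outside it. These values made the choice and are not a result; Arntl is left out of everything that follows. Npas2, Dbp and Per3, further markers of the clock given below, stood apart in the same 4 libraries.

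All mice ate a purified diet and received 2 injections a week over 3 weeks. The agent was an antisense oligonucleotide (ASO), which pairs with a chosen RNA and brings about its loss. The PLIN5 ASO was aimed at Plin5, whose product perilipin 5 coats lipid droplets, and the control ASO was its counterpart. All mice were fasted overnight, and the re-fed ones then had food for 4 h before the liver was taken. The groups were fasted PLIN5 ASO (5 libraries), re-fed control ASO (5), re-fed PLIN5 ASO (5) and fasted control ASO (4, numbered 1, 3, 4 and 5); the last 2 groups hold no library past the threshold and lie outside the choice. The labels name no harvest hour, sex, strain or age, and a single PLIN5 ASO stands for the loss of the protein. They do not say that replicates are separate animals, although the design speaks of mice, so a p-value here measures the spread between these samples, which may be technical.

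The mammalian clock is a loop of transcription and protein decay that runs in nearly every liver cell. BMAL1, paired with CLOCK or NPAS2, binds E-boxes and raises the Per and Cry genes, Nr1d1 and Nr1d2, and the output factors Dbp, Tef and Hlf; PER and CRY proteins then shut that activator off. The receptors REV-ERB alpha and beta (Nr1d1, Nr1d2) repress, and the ROR receptors activate, Arntl, Npas2, Clock, Cry1 and Nfil3, so the genes of the activating arm peak at a different time of day from the genes they drive. In the liver the loop times much of lipid, bile acid, glucose and drug metabolism, and feeding is a strong cue for its phase.

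Promoters of 6 loop genes are shown because they place the sequence elements of the loop beside genes whose levels the results turn on. They are the 250 bases before the annotated start in RefSeq (build GRCm38.p6), 5′ to 3′, with matches in capitals. The letters searched on both strands were CACGTG (E-box, which reads the same on either strand), TTATGTAA or TTATGCAA (D-box, the site of DBP, TEF, HLF and NFIL3) and TAGGTCA or TGGGTCA (core of the element read by ROR and REV-ERB receptors). The capitals in Ciart and Tef are E-boxes and those in Per3 are D-boxes.
Npas2, chr1:39194022-39194271, plus strand: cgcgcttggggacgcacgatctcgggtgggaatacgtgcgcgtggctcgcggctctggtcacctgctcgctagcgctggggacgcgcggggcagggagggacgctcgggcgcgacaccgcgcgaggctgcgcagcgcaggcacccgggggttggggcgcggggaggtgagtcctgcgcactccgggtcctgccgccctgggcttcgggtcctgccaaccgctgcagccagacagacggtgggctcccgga
Dbp, chr7:45704997-45705246, plus strand: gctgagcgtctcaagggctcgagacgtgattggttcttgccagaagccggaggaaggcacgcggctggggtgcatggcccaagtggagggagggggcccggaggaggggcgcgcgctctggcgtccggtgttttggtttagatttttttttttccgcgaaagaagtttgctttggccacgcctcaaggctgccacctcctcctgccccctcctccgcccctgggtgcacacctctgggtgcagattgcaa
Per3, chr4:151044666-151044915, minus strand: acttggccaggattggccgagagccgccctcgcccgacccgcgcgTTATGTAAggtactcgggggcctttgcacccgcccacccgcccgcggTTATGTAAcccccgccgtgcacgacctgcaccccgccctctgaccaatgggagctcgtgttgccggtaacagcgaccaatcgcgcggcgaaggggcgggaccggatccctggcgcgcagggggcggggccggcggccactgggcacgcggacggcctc
Nr1d1, chr11:98775378-98775627, minus strand: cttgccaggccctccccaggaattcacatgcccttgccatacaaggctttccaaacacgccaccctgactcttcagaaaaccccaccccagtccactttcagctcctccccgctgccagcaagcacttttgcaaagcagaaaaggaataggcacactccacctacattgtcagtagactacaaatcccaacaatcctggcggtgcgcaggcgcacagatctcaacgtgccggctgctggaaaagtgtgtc
Ciart, chr3:95882229-95882478, minus strand: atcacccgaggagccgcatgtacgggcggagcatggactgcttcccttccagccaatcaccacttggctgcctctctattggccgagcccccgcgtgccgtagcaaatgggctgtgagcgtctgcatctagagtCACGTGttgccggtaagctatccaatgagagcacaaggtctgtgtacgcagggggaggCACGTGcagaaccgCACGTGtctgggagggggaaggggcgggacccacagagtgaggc
Tef, start 1, chr15:81802423-81802672, plus strand: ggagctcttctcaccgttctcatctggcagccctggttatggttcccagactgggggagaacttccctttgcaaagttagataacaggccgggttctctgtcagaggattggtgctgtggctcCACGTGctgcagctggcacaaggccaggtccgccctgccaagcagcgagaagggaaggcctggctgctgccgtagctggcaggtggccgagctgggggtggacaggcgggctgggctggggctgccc
Tef, start 2, chr15:81811164-81811413, plus strand: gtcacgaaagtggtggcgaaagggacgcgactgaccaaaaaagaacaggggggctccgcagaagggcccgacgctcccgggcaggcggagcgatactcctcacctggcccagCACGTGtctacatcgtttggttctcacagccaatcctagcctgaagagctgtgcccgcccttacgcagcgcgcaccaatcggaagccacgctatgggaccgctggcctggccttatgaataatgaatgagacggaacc
In Ciart, E-boxes lay 116 to 111, 58 to 53 and 44 to 39 bases before the start. Tef had 1 before each of its starts, at 127 to 122 and at 138 to 133 bases. Per3 had D-boxes at 205 to 198 and 158 to 151 bases. Among the 32851 promoters in the table, cut to the same length, 6.02% held this E-box, 1.5% a D-box and 5.38% a ROR core. Npas2, Dbp and Nr1d1 held none of these letters in this window.

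In units of 1e6 counts, library size was 25.8 to 31.8 in the 10 libraries and 24.9 to 66.9 in the 9 outside. The shifted libraries, at 28.04 to 30.7, lay inside the range of the others. The ribosomal RNA gene Rn45s took 0.171% of the counts of fasted PLIN5 ASO 3 and 0.0306% to 0.107% of those of every other library. Plin5, the gene aimed at, was 12.6 and 13.1 against 7.69, 6.15 and 6.14 CPM in fasted PLIN5 ASO, and 45.4 and 34.8 against 27.3, 51.8 and 28.3 CPM in re-fed control ASO, shifted libraries first; the shifted livers of fasted PLIN5 ASO thus held more of it than the others of that group, and those of re-fed control ASO lay between the others. Outside the choice Plin5 was 3.91 to 11.8 CPM in re-fed PLIN5 ASO and 35.1 to 38.5 CPM in fasted control ASO. In a principal component analysis of group-centred levels the leading component took 36.3% of the variance and put the 4 shifted libraries at 22.9 to 40.3 and the 6 others at -30.4 to -6.00. Genes are called separated here when both shifted libraries of a group lay beyond all 3 others, on the same side in both groups. Of 13521 genes tested, 1046 (7.74%) were separated with the higher level in the shifted libraries and 1157 (8.56%) with the lower; 203 (1.5%) and 133 (0.984%) also differed at least 2-fold in the fit. Because Arntl chose the libraries, these counts and all differences between shifted and other libraries are descriptions with no test. Differences are fitted log2 fold changes, shifted over other with the group as a factor, ± SE (n = 4 and 6).

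Genes of the activating arm were high. Npas2, the paralog of Clock that also pairs with BMAL1, stood at 3.02 and 1.92 CPM in the shifted libraries of fasted PLIN5 ASO, against 0.0666, 0.195 and 0.0702 CPM in the others. The shifted libraries of re-fed control ASO held 6.28 and 13.6 CPM, against 0.143, 0.111 and 0.127 CPM in the others. The fitted difference was 5.50 ± 0.40 on the log2 scale, the largest over both groups among the genes named, and the 9 libraries outside the choice held 0 to 0.619 CPM. Clock itself was 51.8 and 59.3 against 22.1, 22 and 24.5 CPM in fasted PLIN5 ASO, and 54.5 and 60.9 against 27, 32.4 and 22.5 CPM in re-fed control ASO, shifted libraries first, a difference of 1.18 ± 0.10. Nfil3, a repressor that competes for D-boxes with DBP, was 31.8 and 32.1 against 14.8, 18.3 and 17 CPM in fasted PLIN5 ASO, and 36.4 and 63 against 16.4, 26.2 and 16.5 CPM in re-fed control ASO, a difference of 1.14 ± 0.17. For all 3 genes the 4 shifted libraries lay above every one of the 15 other libraries of the series. That held for 232 genes (1.72%) of those tested, and 168 (1.24%) lay below all 15, Per3, Ciart, Dbp, Tef, Usp2, Wee1 and Gys2 among them. Rora, a ROR receptor, was 70.4 to 90.5 CPM in the 4 shifted libraries, against 48.7 to 71 CPM in the 6 others, separated within each group by a small margin (0.35 ± 0.11); Csnk1d, a kinase that marks PER proteins for decay, was separated by still less (0.11 ± 0.06).

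**Figure D1:**
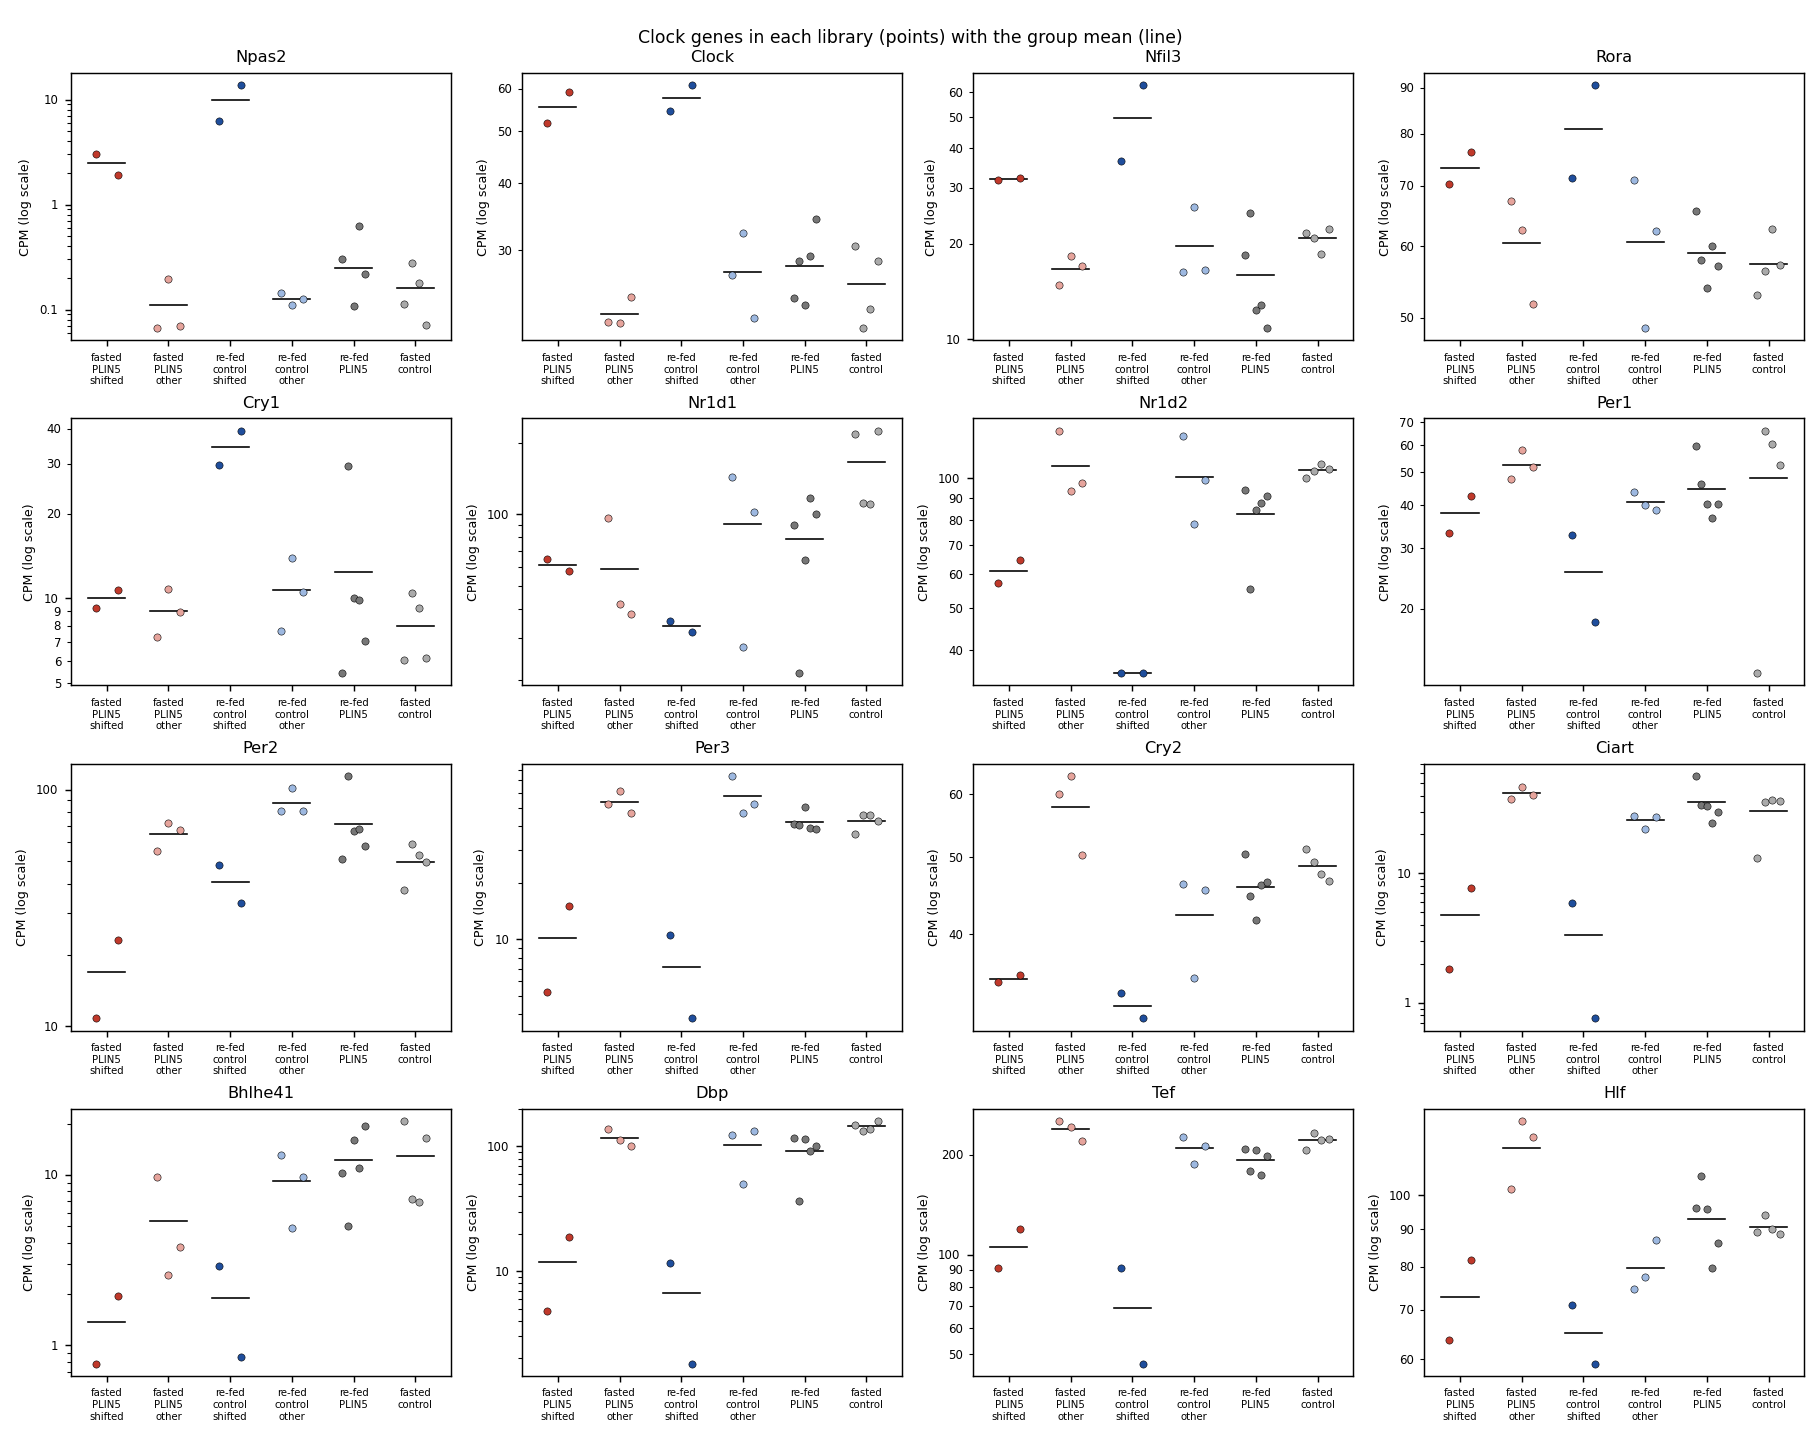
CPM on TMM-scaled libraries (log axes) of 16 clock genes, 1 point per library and a line at the group mean; 1 library of re-fed PLIN5 ASO with no Npas2 count has no point. The shifted libraries (dark red, dark blue) stand above the others for Npas2, Clock and Nfil3 and below them for Per3, Ciart, Dbp and Tef, while Nr1d1 overlaps in both groups.

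The repressing arm was low, with exceptions. Per3, the period gene with the widest gap, stood at 5.26 and 15.1 CPM in the shifted libraries of fasted PLIN5 ASO, against 52.4, 61.3 and 47 CPM in the others. Re-fed control ASO had 10.5 and 3.8 CPM in its shifted libraries, against 74.2, 46.7 and 52.6 CPM in the others. No shifted library came near the others, and the fitted difference was -2.69 ± 0.33. Per2, whose product carries CRY proteins into the nucleus, was 10.8 and 23.2 against 54.7, 72.5 and 67.4 CPM in fasted PLIN5 ASO, and 47.9 and 33 against 81.4, 101 and 81.2 CPM in re-fed control ASO, shifted libraries first (-1.51 ± 0.23). Per1, the period gene that glucocorticoids also induce, differed less, at 18.3 to 42.7 CPM in the 4 shifted libraries, against 38.9 to 57.9 CPM in the 6 others, and was still separated within each group (-0.57 ± 0.14). Ciart, a repressor of the CLOCK-BMAL1 complex and the owner of the 3 E-boxes shown above, stood at 1.82 and 7.64 CPM in the shifted libraries of fasted PLIN5 ASO, against 37.9, 46.9 and 40.7 CPM in the others. In re-fed control ASO it stood at 5.94 and 0.754 CPM in the shifted libraries, against 28, 22.2 and 27.3 CPM in the others. Its difference was -3.05 ± 0.43. Bhlhe41, an E-box repressor also known as DEC2, was 0.779 to 2.94 CPM in the 4 shifted libraries, against 2.57 to 13 CPM in the 6 others (-2.13 ± 0.47); the ranges overlap across the groups but not within them. Its relative Bhlhe40 was low in the shifted livers of fasted PLIN5 ASO (118 and 105 against 134, 147 and 130.1 CPM) and overlapped in re-fed control ASO (386 and 268 against 230.2, 280.2 and 248 CPM).

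The cryptochromes and the REV-ERB receptors split by gene and by group. Cry2 was 31.3 to 35.5 CPM in the 4 shifted libraries, against 35.3 to 63.4 CPM in the 6 others and separated in both groups (-0.55 ± 0.10). Cry1, whose promoter and intron are read by both E-box and ROR factors, overlapped in fasted PLIN5 ASO (9.29 and 10.7 against 7.32, 10.8 and 8.99 CPM) and stood high in the shifted livers of re-fed control ASO (29.7 and 39.4 against 7.64, 13.9 and 10.5 CPM). Its fitted differences were 0.14 ± 0.24 in fasted PLIN5 ASO and 1.69 ± 0.23 in re-fed control ASO; whether these differ was not tested. Nr1d2 was 35.3 to 64.7 CPM in the 4 shifted libraries, against 78.4 to 129 CPM in the 6 others, separated in both groups (-1.15 ± 0.17). Nr1d1 overlapped in both groups: 64.7 and 57.7 CPM in the shifted livers of fasted PLIN5 ASO lay among 96.3, 41.8 and 37.9 CPM in the others, and 35.6 and 31.9 CPM in those of re-fed control ASO lay among 143, 27.7 and 102 CPM. In this gene the others themselves spread widely. The fitted difference was -0.65 ± 0.44 over both groups, 0.06 ± 0.54 in fasted PLIN5 ASO and -1.43 ± 0.57 in re-fed control ASO. Whether the 2 groups differ was not tested. The 19 core clock genes tested had a median of -0.14, against 0.0074 over all genes. Of the 19, 4 were higher and 7 lower (7.74% and 8.56% of all genes were), and 8 were not separated in the same direction. Among the 8 were Cry1, Nr1d1, Bhlhe40, Csnk1e, Btrc and Timeless.

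Among genes whose products read D-boxes, Nfil3 was high, as given above. The output factors Dbp, Tef and Hlf followed the repressing arm. Dbp, the most strongly rhythmic of them in liver, stood at 4.8 and 18.9 CPM in the shifted libraries of fasted PLIN5 ASO, against 137, 112 and 100.05 CPM in the others. The shifted libraries of re-fed control ASO held 11.5 and 1.82 CPM, against 123, 50.2 and 132 CPM in the others. The lowest of the 6 others held 50.2 CPM and the highest shifted library 18.9 CPM, and the fitted difference was -3.60 ± 0.51. Tef was 91.1 and 119.7 against 253, 243 and 220.1 CPM in fasted PLIN5 ASO, and 90.9 and 46.9 against 227, 188 and 213 CPM in re-fed control ASO, shifted libraries first (-1.39 ± 0.17), and Hlf, a relative known for a shallower rhythm, 63.7 and 81.9 against 102, 126 and 119.8 CPM in fasted PLIN5 ASO, and 71.1 and 59.2 against 74.7, 77.6 and 87 CPM in re-fed control ASO (-0.48 ± 0.11). The shifted libraries of re-fed control ASO were ordered with number 5 farther out for Dbp, Tef and Per3, and in fasted PLIN5 ASO number 3 was the farther one. Over all 2203 separated genes, fasted PLIN5 ASO 3 was more extreme than 5 for 68.4%, and re-fed control ASO 5 more extreme than 3 for 67.8%.

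Further outputs lay on both sides. Wee1, a kinase that holds back entry into mitosis and a known E-box target, was 1.92 to 5.79 CPM in the 4 shifted libraries, against 14.8 to 24 CPM in the 6 others (-2.42 ± 0.25). Usp2, a deubiquitinase with a rhythm in many tissues, was 8.33 to 31.2 CPM in the 4 shifted libraries, against 62.3 to 121 CPM in the 6 others (-2.21 ± 0.27). Alas1, the rate-limiting enzyme of haem synthesis, was 382 and 585 against 1342, 1316 and 2264 CPM in fasted PLIN5 ASO, and 159.6 and 119 against 701, 1609.7 and 350.3 CPM in re-fed control ASO, shifted libraries first (-2.20 ± 0.39), and Por, the electron donor of microsomal P450 enzymes, 273 and 445 against 656, 904 and 874 CPM in fasted PLIN5 ASO, and 144 and 111 against 579, 764 and 498 CPM in re-fed control ASO (-1.70 ± 0.24). Nampt, which makes the NAD precursor that SIRT1 uses, was 50.6 to 69.9 CPM in the 4 shifted libraries, against 102 to 175 CPM in the 6 others (-1.30 ± 0.13), and Gys2, liver glycogen synthase and a CLOCK target, 145 to 203 CPM in the 4 shifted libraries, against 309 to 489.8 CPM in the 6 others (-1.23 ± 0.11). Each of these 6 genes was lower in all shifted libraries than in the others of the same group.

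On the high side, Elovl3, an elongase of very long fatty acids, stood at 892 and 928 CPM in the shifted libraries of fasted PLIN5 ASO, against 84.9, 106 and 118 CPM in the others. Re-fed control ASO had 993 and 1304 CPM in its shifted libraries, against 85.8, 92.9 and 71.2 CPM in the others. With 3.47 ± 0.15 it had the widest gap among the outputs that were higher, and the 9 libraries outside held 51.6 to 225 CPM. Cdkn1a, the cell cycle inhibitor p21, which REV-ERB is known to repress, was 28.1 to 57.3 CPM in the 4 shifted libraries, against 2.76 to 13.3 CPM in the 6 others (2.38 ± 0.35). Avpr1a, the vasopressin receptor of hepatocytes, was 53 to 66 CPM in the 4 shifted libraries, against 13.9 to 26.1 CPM in the 6 others (1.69 ± 0.14). Leo1, a part of the elongation complex PAF1C, and Tsc22d3, a glucocorticoid-induced gene known as GILZ, differed by 1.11 ± 0.14 and 1.04 ± 0.21. Of the 22 output genes tested 6 were higher and 9 lower (7.74% and 8.56% of all genes were). The 7 not separated were Klf9, Klf10, Klf15, Id2, Pnpla3, Lgals3bp and Tspan4. Klf15, a regulator of amino acid use, was 189 to 229.7 CPM in the 4 shifted libraries, against 191 to 252 CPM in the 6 others, and the ranges overlapped.

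Beyond the clock lists, the widest differences named by size included several genes with little RNA in the other livers. Slc34a2, a sodium-phosphate cotransporter, stood at 1.82 and 1.33 CPM in the shifted libraries of fasted PLIN5 ASO, against 0.0333, 0.0651 and 0.105 CPM in the others. In re-fed control ASO it stood at 4.31 and 3.36 CPM in the shifted libraries, against 0.215, 0.443 and 0 CPM in the others. The difference was 4.26 ± 0.49. Pitx3, a homeobox factor best known from lens and midbrain, was 6.85 to 21.8 CPM in the 4 shifted libraries, against 0.0717 to 1.51 CPM in the 6 others (3.95 ± 0.55), and Dhrs9, a dehydrogenase of retinoids, 0.901 to 3.91 CPM in the 4 shifted libraries, against 0 to 0.502 CPM in the 6 others (3.81 ± 0.67). Clic3, an intracellular chloride channel protein, was 2.02 to 10.2 CPM in the 4 shifted libraries, against 0.176 to 0.932 CPM in the 6 others (3.28 ± 0.25), and Tff3, a secreted trefoil peptide, 12.1 to 22.6 CPM in the 4 shifted libraries, against 0.59 to 3.86 CPM in the 6 others (2.90 ± 0.38). Lrp2, the endocytic receptor megalin, and Loxl4, a lysyl oxidase-like enzyme, differed by 2.57 ± 0.35 and 2.53 ± 0.22.

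Low in the shifted livers was Rgs16, a brake on G protein signalling that is induced by fasting, at 8.02 and 70.3 against 227, 405 and 324 CPM in fasted PLIN5 ASO, and 24.2 and 31.8 against 533, 201 and 377 CPM in re-fed control ASO, shifted libraries first (-3.37 ± 0.52). Cish, a feedback inhibitor induced by growth hormone through STAT5, was 3.08 and 2.86 against 51.2, 4.3 and 14 CPM in fasted PLIN5 ASO, and 1.34 and 2.13 against 27.8, 30.6 and 6.24 CPM in re-fed control ASO (-3.27 ± 0.68); the others spread widely here. Vldlr, a lipoprotein receptor, was 0.274 to 0.698 CPM in the 4 shifted libraries, against 0.865 to 4.6 CPM in the 6 others (-2.75 ± 0.44), Osbpl3, an oxysterol-binding protein relative, 0.234 to 3.42 CPM in the 4 shifted libraries, against 3.3 to 14.3 CPM in the 6 others (-2.52 ± 0.41), and Themis, a protein of T cell development, 0.0685 to 1.85 CPM in the 4 shifted libraries, against 1.23 to 13 CPM in the 6 others (-2.79 ± 0.51). Onecut1, the liver factor HNF6, was 1.53 and 3.18 against 20.7, 4.1 and 22 CPM in fasted PLIN5 ASO, and 4.81 and 4.97 against 19.5, 42.9 and 6.24 CPM in re-fed control ASO (-2.46 ± 0.56). Upp2, a liver uridine phosphorylase, was 92.6 to 222 CPM in the 4 shifted libraries, against 693 to 984 CPM in the 6 others (-2.27 ± 0.21), and Serpina7, the thyroxine-binding globulin, 6.23 to 15.7 CPM in the 4 shifted libraries, against 18.3 to 83.8 CPM in the 6 others (-2.26 ± 0.40). Within each group all of these genes had both shifted libraries below the others.

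**Figure D2:**
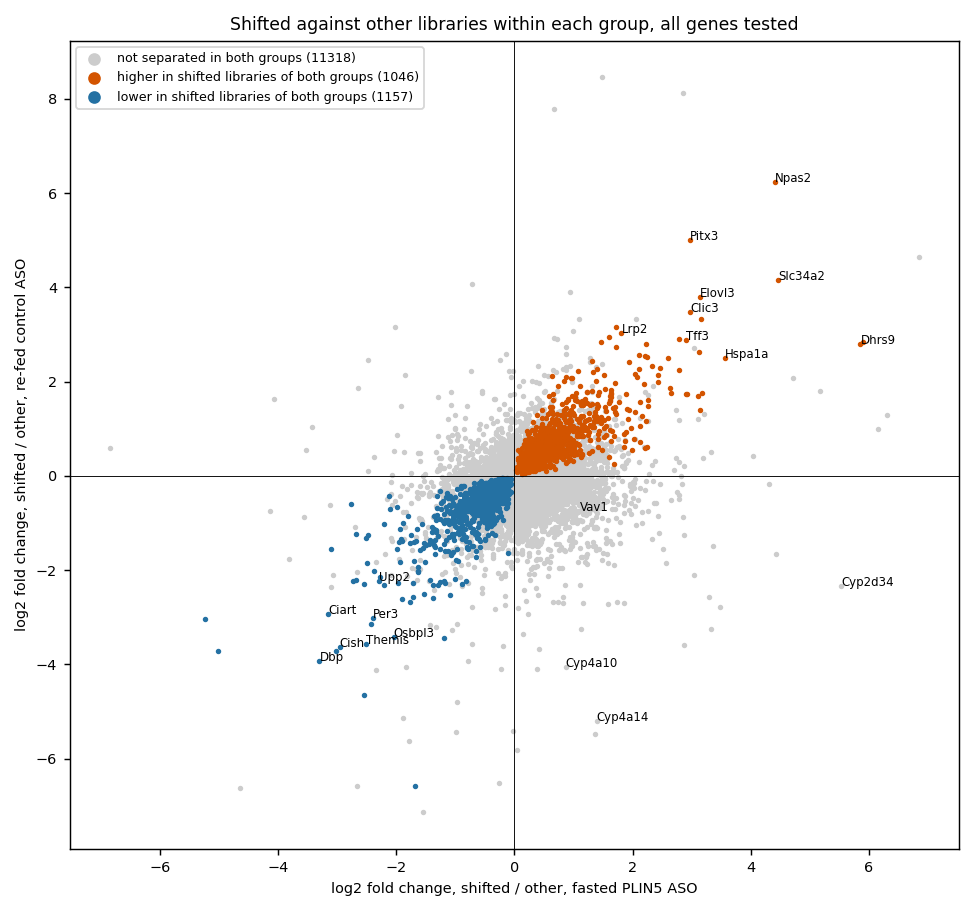
Fitted log2 fold change, shifted over other, of 13521 genes in fasted PLIN5 ASO (x axis) and re-fed control ASO (y axis); orange and blue points are the 1046 and 1157 genes separated in both groups. Npas2 and Elovl3 lie far out at the upper right, Dbp and Per3 at the lower left, and Cyp2d34, Cyp4a14 and Cyp4a10 at the lower right.

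Across all 13521 genes the differences in the 2 groups, which share no library, correlated with r = 0.37 (Spearman's rho = 0.34); this is across genes, which are not independent replicates. In opposite directions, 408 genes (3.02%) were separated. Among them Cyp4a14, a fatty acid omega-hydroxylase driven by PPAR alpha, stood at 2567 and 2739 CPM in the shifted libraries of fasted PLIN5 ASO, against 653, 903 and 1476 CPM in the others. The shifted libraries of re-fed control ASO held 1.57 and 1.68 CPM, against 48.9, 108 and 22.9 CPM in the others. The fitted differences were 1.39 ± 0.48 in fasted PLIN5 ASO and -5.20 ± 0.67 in re-fed control ASO. Cyp4a10, its close relative, was 1211 and 1473 against 492, 755 and 954 CPM in fasted PLIN5 ASO, and 10.01 and 5.69 against 162, 166 and 61.4 CPM in re-fed control ASO, shifted libraries first (differences of 0.87 ± 0.38 in fasted PLIN5 ASO and -4.05 ± 0.48 in re-fed control ASO). Cyp2d34, a cytochrome P450, was 23.4 and 23.8 against 0.732, 0.0651 and 0.737 CPM in fasted PLIN5 ASO, and 0.134 and 12 against 17.8, 35.9 and 37.2 CPM in re-fed control ASO; here 1 shifted library of re-fed control ASO held nearly none and the other 12 CPM. Vav1, an exchange factor of blood cells, Lilrb4a, an inhibitory receptor of myeloid cells, and Entpd1, the ectonucleotidase CD39, were higher in the shifted livers of fasted PLIN5 ASO by 1.11 ± 0.30, 1.02 ± 0.30 and 0.90 ± 0.29, and lower in those of re-fed control ASO, with differences of -0.75 ± 0.33, -0.84 ± 0.33 and -0.79 ± 0.31. That the differences are unlike in the 2 groups was not tested for any gene. Cyp4a and Cyp2d genes have close copies, and the sources used here do not say how reads matching more than 1 copy were counted.

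Fatty acid oxidation genes, many of them driven by PPAR alpha, leaned low in the shifted livers of re-fed control ASO, and had no common side in fasted PLIN5 ASO. Of 25 fatty acid oxidation and ketogenesis genes, 22 were lower in the shifted livers of re-fed control ASO (19.5% of all genes were) and 7 in those of fasted PLIN5 ASO (22.6% of all), where 5 were higher (22% of all). Medians were -0.03 in fasted PLIN5 ASO and -0.48 in re-fed control ASO. Separated as lower in both groups were 7 (8.56% of all genes were). Among them was Cpt1a, the carnitine palmitoyltransferase that gates mitochondrial entry. It was 191 to 537 CPM in the 4 shifted libraries, against 389.7 to 661 CPM in the 6 others (-0.62 ± 0.13). So were Ppara itself (-0.46 ± 0.10) and Hadh (-0.46 ± 0.12) and Bdh1 (-0.39 ± 0.09), enzymes of beta-oxidation and of ketone interconversion. Ehhadh, of the peroxisomal pathway, and Cyp4a31 were separated in opposite directions like Cyp4a10 and Cyp4a14.

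Genes of fat synthesis leaned low. Of 21 fatty acid synthesis genes 7 were lower and 1 higher (8.56% and 7.74% of all genes were), with a median of -0.24. Thrsp, a lipogenic nuclear protein of the liver, was 12.7 and 54.7 against 115, 261 and 312 CPM in fasted PLIN5 ASO, and 998 and 828 against 1274, 1425 and 1473 CPM in re-fed control ASO, shifted libraries first (-1.59 ± 0.50); Scd1, the stearoyl-CoA desaturase, differed by -1.28 ± 0.42, and Lpin1, a phosphatidate phosphatase, by -1.57 ± 0.26. Insig2, which holds SREBP precursors in the endoplasmic reticulum and is a known REV-ERB target, was the 1 higher member, at 414 and 456 CPM in the shifted libraries of fasted PLIN5 ASO, against 107, 126 and 120.3 CPM in the others. Re-fed control ASO had 307 and 403 CPM in its shifted libraries, against 107, 108 and 103 CPM in the others. Its difference was 1.82 ± 0.09. Of 24 cholesterol synthesis genes 2 were higher, Hmgcs1 (0.73 ± 0.19) and the regulator Srebf2 (0.43 ± 0.07), and none lower in both groups. The 2 higher ones lay near the share over all genes (7.74%). Of 16 lipid droplet and lipase genes 4 were lower, Fitm1, a fat storage-inducing protein (-1.39 ± 0.27), the lipases Lipe (-0.71 ± 0.09) and Pnpla2 (-0.50 ± 0.08) and Plin3 (-0.42), and 1 was higher, lipoprotein lipase Lpl (0.79 ± 0.15).

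Sugar handling showed the same lean. Of 17 glycolysis, glycogen and sugar sensing genes 6 were lower and 1 higher (8.56% and 7.74% of all genes were), with a median of -0.32. Beside Gys2 the lower ones were Gbe1, the glycogen branching enzyme (-0.81 ± 0.18), Pklr, liver pyruvate kinase (-0.80 ± 0.18), Pfkfb3 (-0.72), the glucose transporter Slc2a2 (-0.63) and Ugp2 (-0.60). Ppp1r3c, which brings phosphatase to glycogen, was the higher one, at 117 to 247 CPM in the 4 shifted libraries, against 57.7 to 82.2 CPM in the 6 others (1.35 ± 0.19). Of 16 gluconeogenesis and fasting genes 2 were higher and 3 lower. Pdk4, the kinase that shuts pyruvate dehydrogenase, was higher at 4.12 to 12.2 CPM in the 4 shifted libraries, against 0.399 to 2.91 CPM in the 6 others (1.66 ± 0.37), as was the cAMP-responsive factor Crem (0.58 ± 0.10); Txnip, an inhibitor of glucose uptake, Foxo1 and Fbp1 were lower (-0.78 ± 0.20, -0.39 ± 0.08 and -0.22). The gluconeogenic genes Pck1 and G6pc were not among those separated in both groups.

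**Figure D3:**
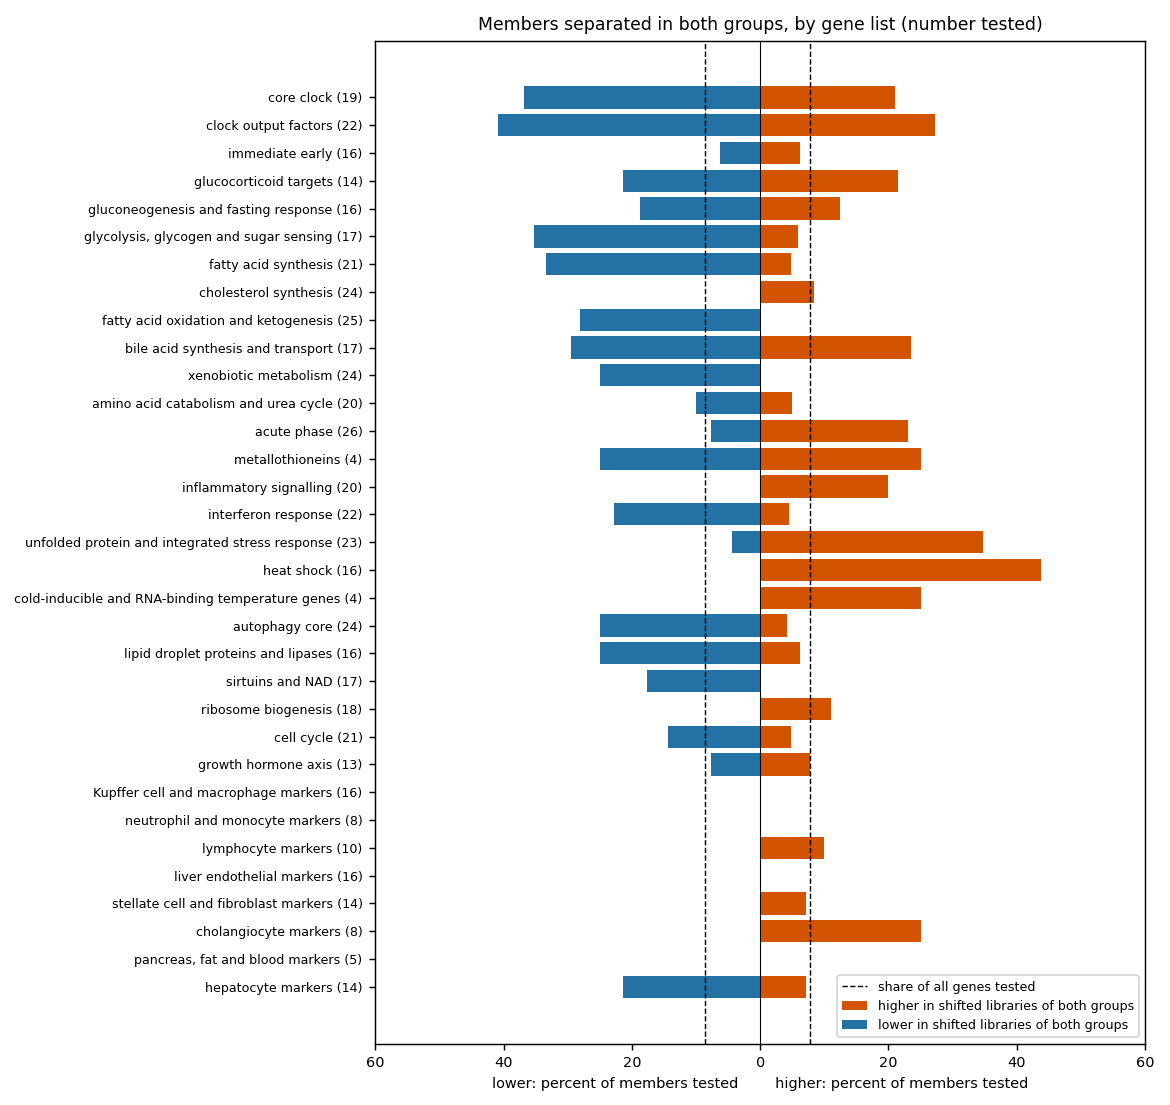
Percent of the tested members of each gene list that were higher (orange, right) or lower (blue, left) in the shifted libraries of both groups; dashed lines give the shares over all genes, 7.74% higher and 8.56% lower. Heat shock and unfolded protein genes reach far to the right, xenobiotic and fatty acid synthesis genes to the left, and the clock lists to both sides.

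Bile acid genes lay on both sides. Cyp7a1, the rate-limiting enzyme of bile acid synthesis, was 13.5 and 28.8 against 50.3, 87.7 and 107 CPM in fasted PLIN5 ASO, and 78.8 and 41.4 against 82.2, 299 and 97.4 CPM in re-fed control ASO, shifted libraries first (-1.67 ± 0.40). Cyp8b1, which sets the share of cholic acid, was 364 to 627 CPM in the 4 shifted libraries, against 148 to 361 CPM in the 6 others (0.92 ± 0.16). The export pump Abcb11 was higher (1.10 ± 0.16), as were the repressor Nr0b2 (0.78) and the conjugating enzyme Baat (0.35). The sterol exporters Abcg5 (-0.92 ± 0.14) and Abcg8 (-0.73), the uptake carrier Slc10a1 (-0.49) and the bile acid receptor Nr1h4 (-0.32) were lower. Thus of 17 genes 4 were higher and 5 lower (7.74% and 8.56% of all genes were), and the median was -0.02.

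Of 24 xenobiotic metabolism genes 6 were lower and none higher in both groups (8.56% and 7.74% of all genes were), with a median of -0.41. Cyp2a5, a coumarin hydroxylase under control of DBP and its relatives, was 86.6 and 330.2 against 764, 1371 and 1127 CPM in fasted PLIN5 ASO, and 264 and 136 against 710.1, 869 and 845 CPM in re-fed control ASO, shifted libraries first (-2.20 ± 0.34). Alas1 and Por belong here too; Ugt1a1, which conjugates bilirubin, Cyp2e1, the ethanol-inducible P450, and the receptor Nr1i2 differed by -0.56 ± 0.11, -0.54 ± 0.11 and -0.41. Of 20 amino acid and urea cycle genes 1 was higher, Gldc, the glycine decarboxylase (1.53 ± 0.11), and 2 lower, Prodh (-0.64 ± 0.17) among them. Of 14 glucocorticoid targets 3 were higher, Sgk1 (1.05 ± 0.20), Sult1e1 (1.97 ± 0.42) and Tsc22d3, and 3 lower, Fkbp5 (-1.08 ± 0.24), Mt1 (-1.03 ± 0.13) and Per1, so the list had no common side. Of 17 sirtuin and NAD genes 3 were lower, Nampt, Sirt3 (-0.38 ± 0.07) and Sirt5 (-0.45 ± 0.09). Of 24 autophagy genes 6 were lower, led by the mitophagy receptor Bnip3 (-1.06 ± 0.14), and 1 higher, the cargo receptor Sqstm1 (0.34); Tfeb, the regulator of lysosomal genes, was 6.87 to 8.81 CPM in the 4 shifted libraries, against 9.23 to 11.4 CPM in the 6 others.

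Chaperone genes leaned high. Of 16 heat shock genes 7 were higher and none lower in both groups (7.74% and 8.56% of all genes were), with a median of 0.51. Hspa1b, an inducible HSP70 gene, stood at 46.8 and 26.8 CPM in the shifted libraries of fasted PLIN5 ASO, against 4.66, 4.2 and 7.16 CPM in the others. In re-fed control ASO it stood at 17.4 and 30.6 CPM in the shifted libraries, against 2.83, 6.49 and 5.79 CPM in the others. The difference was 2.52 ± 0.26, and Hspa1a differed by 3.01 ± 0.42. The pair is nearly identical, so counts may be shared between them. Hsp90aa1, an HSP90 gene, was 124 to 212 CPM in the 4 shifted libraries, against 57.1 to 90.1 CPM in the 6 others (1.15 ± 0.17). Dnajb1, Bag3, Hsp90ab1 and Hspa4l were higher by 0.60 ± 0.10, 0.55, 0.54 and 0.49. Of 23 genes of the unfolded protein and integrated stress response 8 were higher and 1 lower in both groups, again against 7.74% and 8.56% of all genes. The medians were 0.45 in fasted PLIN5 ASO and 0.94 in re-fed control ASO. Higher were the endoplasmic reticulum chaperones and folding enzymes Sdf2l1 (1.85 ± 0.35), Creld2 (1.51 ± 0.32), Manf (0.99), Pdia4 (0.94), Ero1lb (0.90), Calr (0.83) and Hsp90b1 (0.81). The factor Atf5 was higher too, at 280.1 to 492 CPM in the 4 shifted libraries, against 114 to 225 CPM in the 6 others (1.19 ± 0.16). Chac1, which degrades glutathione and is induced by ATF4, was the lower one (-1.49 ± 0.25). In re-fed control ASO 16 of the 23 were higher (19.7% of all genes were), and in fasted PLIN5 ASO 9 (22% of all).

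By number of separated members, acute phase genes leaned high mainly in re-fed control ASO and inflammatory signalling genes mainly in fasted PLIN5 ASO. Interferon response genes leaned low in re-fed control ASO. Of 26 acute phase genes 6 were higher and 2 lower in both groups (7.74% and 8.56% of all genes were). Higher were the fibrinogen genes Fga (0.58 ± 0.12), Fgb (0.41 ± 0.12) and Fgg (0.51), Lbp, which binds bacterial lipopolysaccharide (0.64 ± 0.10), Cp (0.43) and Crp (0.36). Lower were Hamp2 (-1.45 ± 0.34) and Serpina3m (-0.64 ± 0.18). In re-fed control ASO 16 of the 26 were higher (19.7% of all genes were) and 4 lower, and in fasted PLIN5 ASO 7 were higher (22% of all) and 4 lower. Of 20 inflammatory signalling genes 4 were higher and none lower in both groups (7.74% and 8.56% of all genes were). The 4 were the adhesion molecule Icam1 (1.30 ± 0.27), the receptor Il1r1 (0.46 ± 0.10), Stat3 (0.45 ± 0.07) and Nfkb1 (0.22 ± 0.07). In fasted PLIN5 ASO 12 of the 20 were higher (22% of all genes were) and 1 lower. In re-fed control ASO 6 were higher (19.7% of all) and 3 lower (19.5% of all). Of the 20, 2 were separated in opposite directions. Of 22 interferon response genes 1 was higher, Stat2 (0.32), and 5 lower: Ifit3 (-0.97 ± 0.14), Ifit1 (-0.71 ± 0.11), Ifi44 (-0.66 ± 0.21), Isg15 (-0.52 ± 0.14) and Ifih1 (-0.26). In re-fed control ASO 12 of the 22 were lower (19.5% of all genes were) and 2 higher, with a median of -0.32. In fasted PLIN5 ASO 6 were lower (22.6% of all) and 3 higher, with a median of 0.01.

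Markers of several other cell types were high in the shifted livers of fasted PLIN5 ASO, and those of some types in both groups. All 16 Kupffer cell and macrophage markers were higher in the shifted livers of fasted PLIN5 ASO (22% of all genes were), where their summed level was 409 to 567 CPM against 234 to 298 CPM in the others; the median difference was 0.95. In re-fed control ASO the sums overlapped, at 246 to 293 against 233 to 318 CPM, no marker was separated, and the median was 0.02. Clec4f, a receptor of Kupffer cells, was 72.2 and 51.2 against 29.6, 28.0 and 32.3 CPM in fasted PLIN5 ASO and 35.2 and 47.8 against 45.4, 44.2 and 28.9 CPM in re-fed control ASO, shifted libraries first. Of 8 neutrophil and monocyte markers tested 6 were higher in the shifted livers of fasted PLIN5 ASO, with sums over 14 markers of 13.4 to 17.4 against 7.89 to 9.18 CPM, and none in re-fed control ASO, with 6.64 to 7.92 against 6.55 to 11.1 CPM. Endothelial markers were higher for 9 of 16 in fasted PLIN5 ASO (202 to 221 against 155 to 176 CPM summed) and for none in re-fed control ASO (166 to 254 against 228 to 284 CPM). The part of these cells in the inflammatory, acute phase and opposite-direction genes of fasted PLIN5 ASO was not tested, and in bulk tissue more cells of a type cannot be told apart from more RNA per cell.

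**Figure D4:**
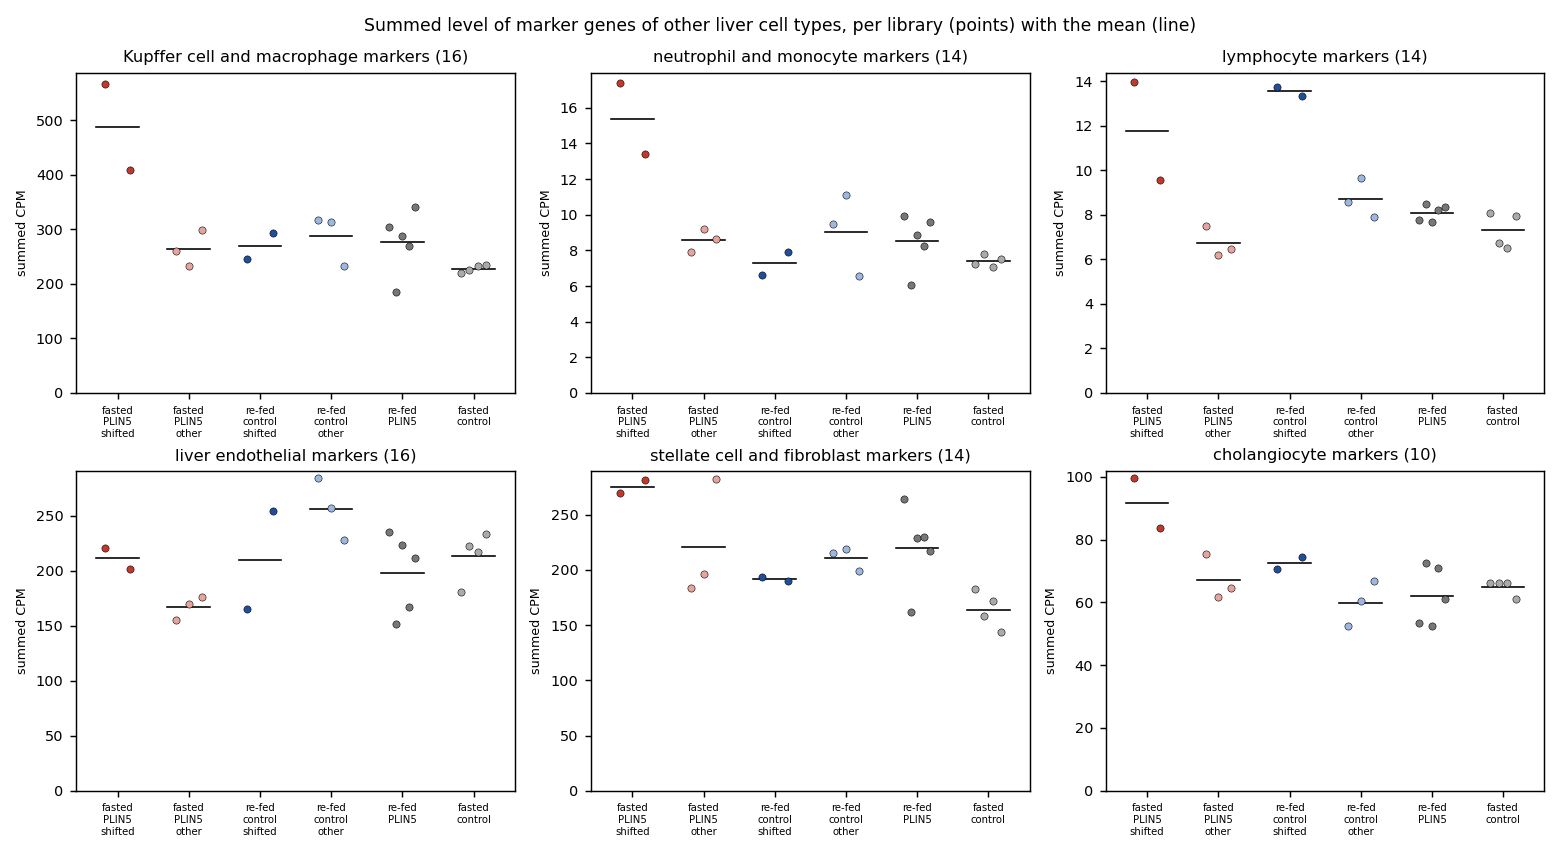
Summed CPM of marker genes of 6 other liver cell types, 1 point per library with the group mean as a line and the number of markers in the title. Kupffer cell markers reach 409 and 567 CPM in the shifted livers of fasted PLIN5 ASO and at most 341 CPM in any library outside the choice.

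Of 14 stellate cell markers 5 were higher in the shifted livers of fasted PLIN5 ASO (22% of all genes were). The sums overlapped there (269 to 281 against 184 to 282 CPM), and in re-fed control ASO they were 190 to 194 against 199 to 219 CPM. Lymphocyte markers summed to 9.56 to 13.96 against 6.19 to 7.49 CPM in fasted PLIN5 ASO and 13.3 to 13.8 against 7.92 to 9.63 CPM in re-fed control ASO; in re-fed control ASO Cd4 alone, at 10.1 and 8.4 against 2.47, 4.02 and 2.69 CPM, made up most of the sum. Cholangiocyte markers summed to 83.8 to 99.5 against 61.7 to 75.5 CPM in fasted PLIN5 ASO and 70.7 to 74.4 against 52.4 to 66.9 CPM in re-fed control ASO, and Sox9 was among the separated members (1.31 ± 0.18), while Krt7 and Cftr stayed under 1 CPM in all 10 libraries. Among 15 pancreas, fat and blood markers 9 had no count in any of the 10 libraries, the globins Hbb-bs, Hba-a1 and Hba-a2 included, and none of the 5 tested was separated in both groups. Of 14 hepatocyte markers 1 was higher and 3 lower in both groups (7.74% and 8.56% of all genes were). The higher one was Fgb. Lower were Cyp2e1, the asialoglycoprotein receptor gene Asgr1 (-0.19 ± 0.07) and Alb, the albumin gene (-0.33 ± 0.10). Alb was 53343 to 60598 CPM in the 4 shifted libraries, against 61537 to 85302 CPM in the 6 others.

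The remaining lists had few separated members. Over all genes 7.74% were higher and 8.56% lower. Of 16 immediate early genes 1 was higher, Nr4a1 (1.57 ± 0.37), and 1 lower, Myc (-1.65 ± 0.39). Of 21 cell cycle genes 1 was higher, Cdkn1a, and 3 lower, Wee1, Gadd45a (-1.52 ± 0.22) and Ccnd1 (-0.66 ± 0.10). Of 13 growth hormone axis genes Stat5b was higher (0.74 ± 0.11) and Cish lower. Of 18 ribosome biogenesis genes Bop1 (0.38 ± 0.09) and Nop16 (0.41 ± 0.09) were higher. In the metallothionein list the manganese exporter Slc30a10 was higher (1.87 ± 0.13) and Mt1 lower. Among 4 temperature-responsive genes Creld2 was higher and Cirbp was separated in opposite directions.

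The 9 libraries outside the choice took no part in it, so they allow a test. Arntl ranged there from 0.832 to 4.49 CPM. The highest library, re-fed PLIN5 ASO 2, also stood apart by transcript length. With each gene centred on its mean, genes over 5000 bases less those under 1000 bases averaged -0.421 log2 units there. Every other library of the series had -0.160 to 0.289. The part of this library in single slopes was not tested. A slope on log2 Arntl within group was fitted for 12784 genes with edgeR's quasi-likelihood test. At an adjusted p under 0.05 no gene was called in either direction (0%); at an unadjusted p under 0.05 there were 377 positive (2.95%) and 341 negative slopes (2.67%), and DESeq2 called 4 genes up and 3 down. Of 40 clock and output genes with a slope, 6 had an unadjusted p under 0.05: Avpr1a (0.48 ± 0.16 log2 units per unit of log2 Arntl), Alas1 (-0.79 ± 0.27), Per3 (-0.21 ± 0.07), Elovl3 (0.76 ± 0.28), Ciart (-0.61 ± 0.25) and Klf10 (-0.28 ± 0.11), each with an adjusted p of 0.817. All but Klf10 had the sign of the difference between shifted and other livers. Npas2 was too low in these libraries to be tested.

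Slopes with small unadjusted p-values, named by the rule of 5 in each direction, included those of Ugt1a5, a glucuronosyltransferase that shares exons with its Ugt1a neighbours (-0.91 ± 0.17), Pnkd (0.52 ± 0.10), Clpx, the unfoldase of a mitochondrial protease (0.43 ± 0.09), and Chka, the choline kinase (0.82 ± 0.19), all with an adjusted p of 0.817 by edgeR's quasi-likelihood test. Clpx was 198 to 256 CPM in the 4 shifted libraries, against 42.7 to 64.4 CPM in the 6 others, and Chka 54.4 to 116 CPM in the 4 shifted libraries, against 11.8 to 23.1 CPM in the 6 others, both on the side that the slope gives. Nedd4l, a ubiquitin ligase of sodium channels, and Psen2, presenilin 2, also had positive slopes (0.58 ± 0.14 and 0.29 ± 0.07) and were higher in the shifted livers, by 1.52 ± 0.13 and 0.73 ± 0.07. Negative slopes were fitted for Arhgap21 (-0.37 ± 0.08), Podxl (-0.55 ± 0.12), Gpr182 (-0.70 ± 0.16) and Fam167b (-0.72 ± 0.16). Of these Arhgap21, a GTPase-activating protein, was separated as lower (-0.54 ± 0.09).

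Outside libraries resembled the shifted ones in some genes only. Re-fed PLIN5 ASO 2 had the highest Arntl outside the choice, 4.49 CPM, with Cry1 at 29.5 CPM and Dbp at 36.3 CPM, against 5.43 to 10.02 CPM and 91.8 to 116 CPM in the rest of its group. Its Per2, at 114 CPM, was the highest of all 19 libraries, whereas the shifted libraries held 10.8 to 47.9 CPM. Fasted control ASO 1 held 13.1 CPM of Ciart, 12.9 CPM of Per1 and 23.8 CPM of Rgs16, against 35.8 to 36.9, 52.4 to 66.2 and 124 to 182 CPM in the rest of its group, while its Arntl was 2.44 CPM and its Dbp, at 148 CPM, lay within the 134 to 160.4 CPM of the rest.

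**Figure D5:**
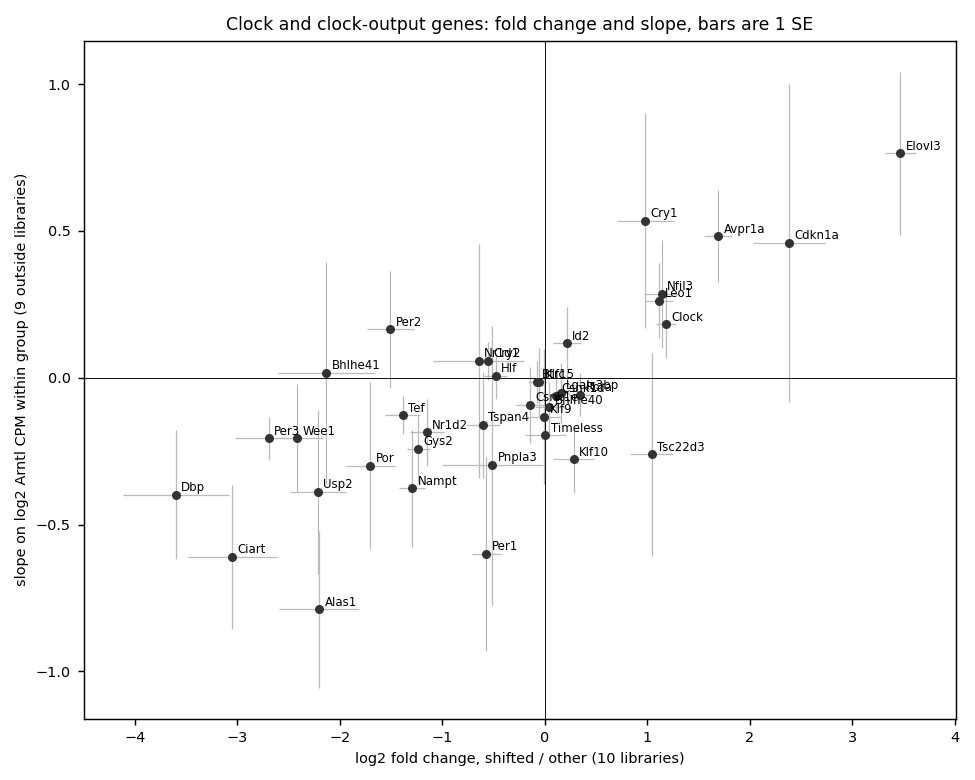
Difference between shifted and other libraries (x axis, log2 fold change, 10 libraries) and slope on log2 Arntl (y axis, 9 libraries outside the choice) of 38 clock and output genes; bars are 1 SE. Elovl3 lies at the upper right, at 3.47 and 0.76, and Dbp and Ciart at the lower left, but no slope had an adjusted p under 0.05.

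The labelled comparisons of the study mix shifted and other livers, since fasted PLIN5 ASO and re-fed control ASO hold 2 each and the groups they are set against none. Clock and output genes were therefore tested in each comparison with all 19 libraries and again without the 4, using edgeR's quasi-likelihood test with Benjamini-Hochberg adjustment over all genes. In fasted liver, PLIN5 ASO against control ASO, 2 of 41 were called: Csnk1d (0.30 ± 0.06, adjusted p = 0.0258) and Id2, an inhibitor of E-box factors (-1.07 ± 0.16, adjusted p = 0.00294). Over all genes 156 of 13293 were called (1.17%). Without the 4 libraries Csnk1d was no longer called (0.26 ± 0.07, adjusted p = 0.0806), Id2 was (-1.22 ± 0.18, adjusted p = 0.00666), and Klf10, a TGF-beta-induced factor, was called too (-1.02 ± 0.20, adjusted p = 0.0281). Csnk1d was also lost when fasted PLIN5 ASO 3 or 5 or any of the fasted control ASO libraries was left out alone. Between PLIN5 ASO and control ASO in re-fed liver none of 41 was called with the 4 and none of 40 without them, with 9 at an unadjusted p under 0.05 in each fit; DESeq2 called 2, Klf10 and Npas2. All genes called there numbered 183 (1.38%) with the 4 libraries and 45 of 13286 (0.339%) without them, 35 of them the same.

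Re-feeding under control ASO gave 6 called clock and output genes with all libraries, where 1759 genes (13.2%) were called. Npas2 was among them (4.62 ± 1.44, adjusted p = 0.0403), as was Leo1 (1.07 ± 0.32, adjusted p = 0.0324). Without the shifted libraries Npas2 was removed by the filter on low counts and Leo1 was not called (0.36 ± 0.18, adjusted p = 0.242). Bhlhe40 (0.74 ± 0.13, adjusted p = 0.00129), Klf10 (0.96 ± 0.21, adjusted p = 0.00531), Pnpla3, a lipogenic lipase relative (4.30 ± 0.64, adjusted p = 0.000312), and Lgals3bp (-0.38 ± 0.11, adjusted p = 0.0251) were called in both fits, and Per2 was called without the 4 (0.82 ± 0.22, adjusted p = 0.0282), so that 5 were called. With 1 library left out at a time, Npas2 and Leo1 were not called without re-fed control ASO 3 or 5 or without any of the fasted control ASO libraries, and Lgals3bp was not called without re-fed control ASO 1 or fasted control ASO 1, 3 or 4. Without the 4 shifted libraries 1167 of all genes (8.78%) were called, 937 of them the same as with all libraries.

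Re-feeding under PLIN5 ASO, where the fasted group holds the shifted livers, gave 6 called of 41 with all libraries and 9 of 40 without the 4, at 1148 (8.64%) and 1048 genes (7.89%) in all, 696 of them the same. Bhlhe40 rose in both fits (1.27 ± 0.13, adjusted p = 6.43e-06, and 1.16 ± 0.10, adjusted p = 1.71e-05), as did Klf10 (2.33 ± 0.20 and 2.65 ± 0.20). Id2 and Pnpla3 were called in both fits as well. Csnk1d and Lgals3bp were called with the 4 and not without them. Csnk1d was also lost when any of fasted PLIN5 ASO 1, 2, 3 and 5 or re-fed PLIN5 ASO 2, 3, 4 and 5 was left out alone, and with no filter, and Lgals3bp when fasted PLIN5 ASO 3 was. Cry2 (-0.34 ± 0.10, adjusted p = 0.0407), Tef (-0.31 ± 0.08, adjusted p = 0.0357), Hlf (-0.32 ± 0.09, adjusted p = 0.0430), Wee1 (-0.70 ± 0.19, adjusted p = 0.0348) and Leo1 (0.66 ± 0.18, adjusted p = 0.0308) were called without them and not with them, at differences of -0.09, 0.06, -0.09, -0.11 and 0.26 with all libraries. Dbp, Per3, Clock and Elovl3 passed the threshold in none of the 4 comparisons in either fit. With the shifted libraries their SEs were 0.78 to 0.82, 0.58 to 0.61, 0.29 to 0.31 and 0.82 to 0.91, and without them 0.31 to 0.33, 0.14 to 0.15, 0.14 to 0.15 and 0.35 to 0.37.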

How the data were processed

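Liver RNA of 19 libraries in 4 groups was sequenced. The authors deposited read counts per gene symbol (24421 symbols) and FPKM per gene symbol (24347), with 1 column per library; how the FPKM were scaled further is not stated. The submitters' processing notes list the aligner HISAT2 2.0.2, Subread, Cuffdiff 2.2.1, edgeR and FastQC, and the builds GRCm38 and mm10, without saying what each was used for. The sources used here give no annotation, strand setting or rule for multiply matching reads, so near-identical or overlapping genes may share counts. Of the symbols in the count file, 27 have the form of dates.

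Fits used edgeR 4.0.16 in R 4.3.3 (TMM scaling, filterByExpr with its minimum count of 10, quasi-likelihood fits); levels are CPM on TMM-scaled libraries. Shifted and other libraries were compared in the 10 libraries with the group as a factor, and no p-value is given because a gene of the same data chose the libraries. Tests were the slope on log2 Arntl within group in the 9 libraries outside the choice, and the 4 labelled comparisons in 1 fit of all 19 libraries and again without the 4, two-sided, with Benjamini-Hochberg adjustment over all genes and a threshold of 0.05. The code was tested on simulated data. Counting error covers only part of the spread: total counts per library, 24.9 to 66.9 in units of 1e6, limit the precision of low genes.

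The members and the 33 gene lists (550 of 555 genes in the table) were chosen with earlier results of these data known. Named were the 12 highest and 12 lowest fitted differences among separated genes with at least 2 CPM in the shifted or the other libraries, without clone-type names (Gm with digits, or a Rik ending). To these came all clock and output genes, up to 4 separated members of each other list by size, 6 genes separated in opposite directions and 5 per direction for the slope. List members named beyond these were chosen after their values were seen, because their list's separated members are given. A few genes that these rules select are not reported here. Alternatives were RLE factors, no scaling, no filter or at least 1 CPM in 4 libraries, the Wald test of DESeq2 1.42.0, limma 3.58.1 on log2(FPKM + 1) where FPKM averaged 0.5 or more, and on log2(FPKM + 0.1) unfiltered, a replicate block, omission of each library in turn, and fasted control ASO 3 and 4 summed. For that pair chi-square over its degrees of freedom was 3.24, against 18.9 or more for every other pair, and it was kept as 2 samples. The value is beyond counting noise, but it cannot tell separate livers from repeat libraries of a single liver. Promoter sequences are from RefSeq, build GRCm38.p6; which share of a gene list holds a motif is not given, since too few list genes have a promoter in the table.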

Additional observations from a re-analysis of the deposited data

Results flagged for a closer look

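Among 144 named genes, 386 sets of a gene and a group were looked at for a single library set far apart from the rest of its group. The 25 found lie near the rate of about 1 set in 20 that chance alone gives where the libraries of a group are alike. Many genes were named for a split of shifted and other libraries, so this rate need not hold in fasted PLIN5 ASO and re-fed control ASO. In the shifted livers of re-fed control ASO, library 5 stood apart with 431 CPM of Asgr1, 3.91 CPM of Dhrs9, 79.1 CPM of Nr4a1 and 12.2 CPM of Pdk4, and library 3 with 7.04 CPM of Gpr182 and 0.935 CPM of Sult1e1. Among the others of that group, library 2 held 299 CPM of Cyp7a1, and library 1 held 72.0 CPM of Lgals3bp. The shifted library 3 of fasted PLIN5 ASO stood apart with 3.83 CPM of Entpd1 and 5.97 CPM of Timeless. Among the others of that group, library 1 held 51.2 CPM of Cish, 32.9 CPM of Myc and 3.29 CPM of Fam167b.

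Outside the choice, re-fed PLIN5 ASO 2 stood apart with 29.5 CPM of Cry1, 55.5 CPM of Nr1d2 and 114 CPM of Per2, all clock genes. Re-fed PLIN5 ASO 3 held 121 CPM of Klf10 and 50.8 CPM of Per3, and re-fed PLIN5 ASO 1 held 57.0 CPM of Ciart. Fasted control ASO 1 stood apart with 13.1 CPM of Ciart, 281 CPM of Gys2, 247 CPM of Id2 and 176 CPM of Pnkd, and fasted control ASO 5 with 31.7 CPM of Klf10 and 3.58 CPM of Timeless.

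For 8 named genes both shifted libraries lay above the others in fasted PLIN5 ASO and below them in re-fed control ASO; the difference between the groups was not tested. The log2 differences, in fasted PLIN5 ASO and then in re-fed control ASO, were 5.53 and -2.33 for Cyp2d34, 1.39 and -5.20 for Cyp4a14, 0.87 and -4.05 for Cyp4a10, and 1.11 and -0.75 for Vav1. They were 1.02 and -0.84 for Lilrb4a, 0.90 and -0.79 for Entpd1, 0.41 and -0.42 for Timeless, and 0.21 and -0.41 for Fam167b. Kupffer cell markers were higher in the same libraries of fasted PLIN5 ASO, as given above, and their part in the values of Vav1, Lilrb4a and Entpd1 was not tested.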

How the results depend on the processing

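No paired analysis was possible for shifted against other livers because the shifted libraries carry numbers 3 and 5 in both groups, so that the replicate number and the shifted status cannot be told apart. The numbers of separated genes, 1046 higher and 1157 lower, stayed within 1.5 times under RLE factors, column totals, either filter and both FPKM scales; a minimum of 2-fold left 203 and 133 by its construction. Leaving out each library gave 1129 to 1578 higher and 1262 to 1813 lower genes, most without re-fed control ASO 3. Separation asks less of fewer libraries, so these counts are not like for like with the main ones. Why the omission of number 3 gave the most was not tested. For the slope, counts stayed at 0 in both directions under all alternatives except DESeq2, with 4 positive (Chka, Clpx, Lrfn4, Pnkd) and 3 negative genes (Fam167b, Gpr182, Ugt1a5), and the replicate block, with 5 negative genes (Fmo2, Gpcpd1, Mt1, Mt2, Smad9); leaving out each library gave 0 to 0.

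In the labelled comparisons same-number libraries did not all deviate together (r of -0.21 to 0.15 for re-feeding under PLIN5 ASO), so the numbers were not taken as pairs. Called clock and output genes numbered 2 in fasted liver, PLIN5 ASO against control ASO, and 1 with fasted control ASO 3 and 4 summed; leaving out each library gave 1 to 2, the 1 without fasted PLIN5 ASO 3 or 5 or any fasted control ASO library, Id2 each time. Between PLIN5 ASO and control ASO in re-fed liver the 0 became 2 with DESeq2 and 1 with the replicate block (Klf10), and stayed at 0 to 0 without each library. For re-feeding under control ASO the 6 became 3 with limma on either FPKM scale and 3 with fasted control ASO 3 and 4 summed (Bhlhe40, Klf10 and Pnpla3 each time); leaving out each library gave 3 to 7, with 3 without fasted control ASO 3 or 4. For re-feeding under PLIN5 ASO the range without each library was 4 to 6. The causes were not tested.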
